A study of Mus musculus with 30 samples.

Results

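This account covers 10 mouse genes of sodium transport in the distal nephron and of the WNK kinase pathway that sets it, chosen by their symbols from the 54838 gene rows of a kidney raw-count table. They are *Slc12a1*, *Slc12a3*, *Scnn1a*, *Scnn1b*, *Scnn1g*, *Wnk1*, *Wnk4*, *Stk39*, *Sgk1* and *Nedd4l*. The series holds 30 RNA-seq libraries, 15 of kidney and 15 of gastrocnemius muscle. The kidney libraries fall into 3 groups of 5, all from wild-type male C57BL/6J mice kept at thermoneutrality (30 to 32 °C) from 6 weeks of age. The CD group received a control diet with water, the WD group a Western diet rich in fat and sucrose with water, and the WD + CHP group the Western diet with cyclo(His-Pro), a cyclic dipeptide, at 20 mg/kg by gavage 3 times per week. Diets and CHP began at week 7, and mice were killed in week 24, 3 h into a fast. By the study's methods RNA was taken from each mouse separately, so replicates are mice. WD vs. CD asks what the diet did in the kidney, WD + CHP vs. WD what CHP did on that diet, and WD + CHP vs. CD how far the treated mice stood from controls. The 3 comparisons share libraries and are not independent of each other.

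Beyond the proximal tubule, sodium is taken back by a different transporter in each segment. The thick ascending limb uses the sodium-potassium-chloride cotransporter NKCC2 (*Slc12a1*), the distal convoluted tubule the sodium-chloride cotransporter NCC (*Slc12a3*), and the connecting tubule and collecting duct the epithelial sodium channel ENaC, built of α, β and γ subunits (*Scnn1a*, *Scnn1b*, *Scnn1g*). WNK kinases (*Wnk1*, *Wnk4*) act through the kinase SPAK (*Stk39*), which phosphorylates and activates NCC and NKCC2. SGK1, a kinase whose gene is induced by aldosterone and glucocorticoids, restrains the ubiquitin ligase NEDD4-2 (*Nedd4l*), which otherwise removes ENaC from the membrane. These activities are set largely by phosphorylation and trafficking, which RNA counts do not measure.

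The libraries held 37189192 to 38211422 counts each, and all 10 genes were among the 17120 that passed the low-count filter. Proximal tubule markers summed to 15651 to 18551 CPM (counts scaled to the same effective library size) over the groups and podocyte markers to 354 to 449 CPM, as for kidney, although the extraction text in the labels names liver. Hepatocyte markers summed to 593 CPM in WD replicate 5, to 135 CPM in CD replicate 1 and to 44.6 to 72.5 CPM in the rest. Mitochondrial genes took 17.8% to 19.6% of counts in CD, 18.7% to 20.9% with WD and 18.9% to 21.1% with WD + CHP.

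The genes that rose on the Western diet included *Sgk1*, *Slc12a3* and *Wnk4*, and the stretches around their transcription starts are shown here so that the elements beside these 3 genes can be read. They come from RefSeq (GRCm38.p6), run from 250 bases before to 50 bases after the start in the gene's direction, and were found for 8 of the 10 genes. Capitals mark matches, on either strand, to the steroid receptor half-site AGAACA, the E-box CACGTG, the TATA box TATAAA and the GC box GGGCGG. Of 32851 such windows of 300 bases, 19% held the half-site, 7.15% the E-box, 13.6% the TATA box and 35.7% the GC box. All windows shown here lie on the plus strand.
*Sgk1*, chr10:21993640-21993939: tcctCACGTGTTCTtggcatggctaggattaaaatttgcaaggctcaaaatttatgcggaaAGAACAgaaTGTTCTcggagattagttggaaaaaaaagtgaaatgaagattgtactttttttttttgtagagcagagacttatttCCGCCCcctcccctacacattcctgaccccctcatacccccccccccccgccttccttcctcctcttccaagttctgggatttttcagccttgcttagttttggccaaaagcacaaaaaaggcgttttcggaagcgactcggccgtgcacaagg
*Sgk1*, chr10:21994416-21994715: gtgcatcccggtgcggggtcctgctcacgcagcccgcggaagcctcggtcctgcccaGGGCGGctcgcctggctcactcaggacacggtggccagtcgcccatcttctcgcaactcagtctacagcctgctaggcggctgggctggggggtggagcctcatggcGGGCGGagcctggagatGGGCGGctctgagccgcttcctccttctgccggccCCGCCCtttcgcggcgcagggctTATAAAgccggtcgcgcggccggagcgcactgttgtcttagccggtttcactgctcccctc
*Slc12a3*, chr8:94328958-94329257: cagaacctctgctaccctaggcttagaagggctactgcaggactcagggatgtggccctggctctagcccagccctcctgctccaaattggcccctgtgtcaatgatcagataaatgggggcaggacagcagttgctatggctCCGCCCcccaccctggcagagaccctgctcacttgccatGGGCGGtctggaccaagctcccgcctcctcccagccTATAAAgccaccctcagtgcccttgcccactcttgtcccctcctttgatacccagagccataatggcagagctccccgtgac
*Wnk4*, chr11:101260317-101260616: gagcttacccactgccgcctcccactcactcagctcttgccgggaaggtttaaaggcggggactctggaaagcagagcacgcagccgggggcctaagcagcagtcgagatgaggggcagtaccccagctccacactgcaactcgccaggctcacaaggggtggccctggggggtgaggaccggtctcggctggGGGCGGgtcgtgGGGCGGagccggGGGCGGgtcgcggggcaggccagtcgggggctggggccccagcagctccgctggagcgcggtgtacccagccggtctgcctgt
*Sgk1* has 6 annotated starts, and 3 of its 6 windows held a half-site. In the first window shown, a half-site 189 bases before the start and its reverse complement are separated by 3 bases. This paired form, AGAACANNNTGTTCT, was looked for after the half-sites had been seen, and it occurred in 3 of the 32851 windows (0.00913%). A further half-site in that window overlaps the E-box, so that their capitals run together. The second *Sgk1* window held a TATA box 11 bases before the start and 4 GC boxes. The *Slc12a3* window held a TATA box 32 bases before the start and 2 GC boxes, and the *Wnk4* window 3 GC boxes within 57 bases of the start. A match is a description of letters, not evidence of binding.

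Per kilobase of transcript, the scale on which genes can be compared, the cotransporters stood far above the rest. In CD, *Slc12a3* was at 310.5 ± 14.2 and *Slc12a1* at 262 ± 23.9 CPM per kb (SD, n = 5), and their libraries overlapped. *Scnn1a* (45.2), *Wnk4* (43.9) and *Wnk1* (37.7 CPM per kb) came next, and *Wnk4* overlapped both of its neighbours. *Scnn1b* (18.7), *Nedd4l* (16.4) and *Sgk1* (16.2 CPM per kb) overlapped each other, *Scnn1g* (11.4) overlapped *Sgk1*, and *Stk39* (9.56 CPM per kb) was lowest, below every *Scnn1g* library. ENaC subunit RNAs were thus unequal, with α above β and β above γ in every group mean. Lengths are those of the longest coding transcript. With all annotated exons of a gene joined instead, *Slc12a3* fell to 120.4 CPM per kb, below *Slc12a1* at 215 CPM per kb. On that scale *Wnk1* fell to 18.7, *Sgk1* to 10.2 and *Nedd4l* to 7.21 CPM per kb. *Scnn1g* then stood above *Sgk1* and *Nedd4l*, and *Wnk4* above *Scnn1a*, so the order depends on the length used.

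**Figure D1:**
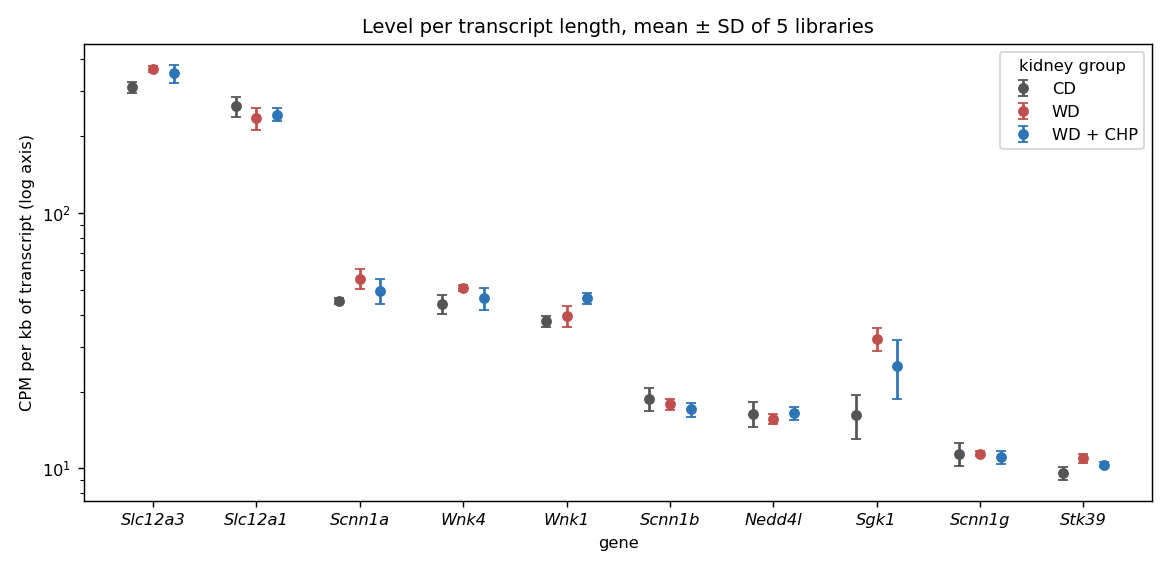
Level of each gene per kilobase of its longest coding transcript (vertical log axis, CPM per kb) in the 3 kidney groups, as mean ± SD of 5 libraries. The cotransporters lie above 200 CPM per kb and *Stk39* near 10, and the *Sgk1* points are the most spread between groups, from 16.2 in CD to 32.1 in WD.

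On the Western diet, 5 of the 10 genes rose and none fell at an edgeR adjusted p under 0.05. *Sgk1* about doubled, and *Scnn1a*, *Slc12a3*, *Wnk4* and *Stk39* rose by 14.5% to 22.6%. Over all genes tested, 9.65% passed in this comparison, 4.62% higher and 5.03% lower. The median log2 fold change of the 10 genes was 0.13, beside 0.0015 over all genes. With CHP on the Western diet none of the 10 passed, where 0.105% of all genes did.

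**Figure D2:**
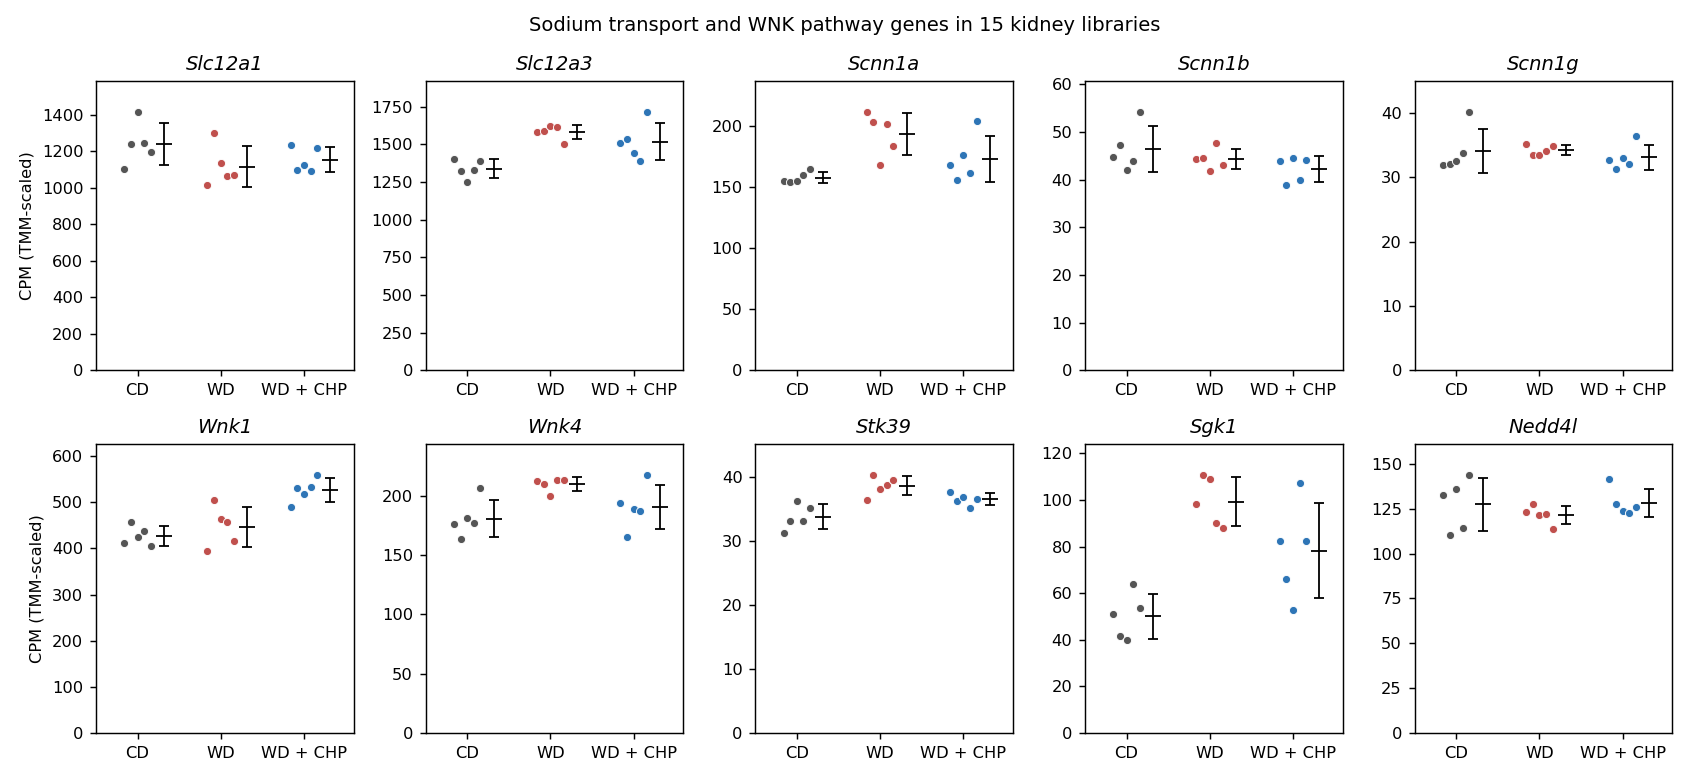
CPM of the 10 genes (vertical axis, TMM-scaled, from 0) in each of 15 kidney libraries, by group. Points are libraries, and the bar beside them is mean ± SD (n = 5). The WD points of *Slc12a3*, *Scnn1a*, *Stk39* and *Sgk1* all lie above the CD points, and the WD + CHP points of *Wnk1* all lie above its CD points. How many of all genes are separated in this way was not counted.

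The kinase gene *Sgk1* (ENSMUSG00000019970, chr10:21882184-21999903, GRCm38, plus strand) had the largest log2 differences of the 10 in all 3 comparisons. The CD libraries read 51.1, 41.7, 40.0, 64.0 and 53.5 CPM. The WD libraries read 98.4, 111, 109, 90.3 and 88.1 CPM. Those of WD + CHP read 82.3, 66.1, 52.8, 107 and 82.5 CPM. Every WD library stood above every CD library, while the WD + CHP libraries spread widely, with 1 inside the CD range, 1 inside the WD range and the others between. WD vs. CD gave a log2 fold change of 0.99 (SE 0.16), or 1.98-fold, with an edgeR adjusted p = 0.00115. WD + CHP vs. CD gave 0.64 (SE 0.16, edgeR adjusted p = 0.0143), a rise of 56.1%. The difference between WD + CHP and WD was −0.35 (95% interval −0.67 to −0.019, edgeR adjusted p = 0.41) and did not pass, with 4 of 5 treated libraries below all WD libraries. The counts sum over the 6 starts and do not separate them.

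*Slc12a3* (ENSMUSG00000031766, chr8:94329201-94366214, plus strand), the thiazide-sensitive cotransporter, rose with little spread. The CD libraries read 1402, 1320.5, 1249, 1331 and 1389 CPM. The WD libraries read 1580.1, 1588, 1621, 1615 and 1499 CPM. The WD + CHP libraries read 1511, 1533, 1439, 1387 and 1714 CPM. WD and CD did not overlap, and 4 of 5 WD + CHP libraries were above all of CD. The log2 fold change was 0.24 (SE 0.052, edgeR adjusted p = 0.00844) for WD vs. CD, a rise of 18.1%. For WD + CHP vs. CD it was 0.18 (SE 0.052, edgeR adjusted p = 0.0331). That second call was lost on 4 of 10 omissions of a library, namely CD replicates 2 and 3 and WD + CHP replicates 2 and 5 (edgeR adjusted p 0.0504 to 0.0612), and with total-count scaling (0.13, adjusted p = 0.123). WD + CHP vs. WD differed by −0.060 (95% interval −0.17 to 0.050, edgeR adjusted p = 0.713).

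*Slc12a1* (ENSMUSG00000027202, chr2:125152505-125230002, plus strand), the loop-diuretic-sensitive cotransporter of the segment before it, passed in no comparison. Its levels ran from 1101 to 1414 CPM in CD, from 1013 to 1299.7 with WD and from 1093 to 1235 with WD + CHP, and all 3 ranges overlapped. WD vs. CD gave −0.15 on the log2 scale (95% interval −0.30 to −0.0033) at an edgeR adjusted p = 0.19. It was −0.095 without CD replicate 3 and −0.21 without WD replicate 2 (edgeR adjusted p = 0.436 and 0.0627). The differences were 0.047 for WD + CHP vs. WD and −0.11 for WD + CHP vs. CD, with edgeR adjusted p of 0.859 and 0.362.

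The balance of the 2 cotransporters within libraries shifted as well. The count ratio of *Slc12a3* to *Slc12a1* averaged 1.09 ± 0.144 for CD, 1.43 ± 0.132 for WD and 1.32 ± 0.0843 for WD + CHP (SD, n = 5). An exact two-sided permutation test of the log2 ratio gave p = 0.0159 for WD vs. CD, or 0.0397 adjusted over 15 tests of 5 ratios, although the groups overlapped. The ratios were chosen with the levels known, and 0.00794 is the smallest p this test can give. WD + CHP vs. CD gave an exact p = 0.0238 (adjusted 0.051), and WD + CHP vs. WD an exact p = 0.183. A ratio within a library does not depend on how libraries are scaled.

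Of the ENaC genes, the α subunit rose on the diet. *Scnn1a* (ENSMUSG00000030340, chr6:125320659-125344943, plus strand) encodes the subunit that channels need to assemble. The CD libraries read 156, 155, 155, 160.0 and 165 CPM. The WD libraries read 212, 203, 168, 202 and 184 CPM. The WD + CHP libraries read 169, 156, 176, 162 and 205 CPM. The CD values were tightly grouped and all WD values lay above them, while 2 of 5 WD + CHP values lay within the CD range. WD vs. CD gave a log2 fold change of 0.29 (SE 0.069, edgeR adjusted p = 0.0131), a rise of 22.6%. WD + CHP vs. CD gave 0.13 (95% interval −0.011 to 0.28, edgeR adjusted p = 0.22). WD + CHP vs. WD gave −0.16 (95% interval −0.31 to −0.014, edgeR adjusted p = 0.389).

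The β and γ subunit genes lie near each other on chromosome 7, *Scnn1b* (ENSMUSG00000030873) at chr7:121865038-121918514 and *Scnn1g* (ENSMUSG00000000216) at chr7:121734479-121768475, both on the plus strand. *Scnn1b* ran from 41.9 to 54.2 CPM in CD, 41.9 to 47.6 with WD and 38.8 to 44.4 with WD + CHP. *Scnn1g* ran from 31.9 to 40.1, 33.4 to 35.1 and 31.3 to 36.3 CPM. The ranges overlapped in every comparison, and neither gene passed in any. WD vs. CD differed by −0.069 for *Scnn1b* (95% interval −0.20 to 0.064) and by 0.0041 for *Scnn1g* (95% interval −0.12 to 0.13), so a rise as large as the estimate for *Scnn1a* lies outside both intervals. Without CD replicate 5 these values were −0.0028 and 0.074. *Scnn1b* in WD + CHP vs. CD was at −0.14 (95% interval −0.27 to −0.0037, edgeR adjusted p = 0.17), and *Scnn1g* at −0.044 (95% interval −0.17 to 0.080).

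The difference between subunits was itself tested, in ratios chosen with the levels known. The ratio of *Scnn1a* to *Scnn1b* counts was 3.43 ± 0.273 in CD and 4.38 ± 0.304 in WD, with no overlap (exact permutation p = 0.00794, adjusted 0.0238). The ratio to *Scnn1g* went from 4.66 to 5.67, also without overlap (exact permutation p = 0.00794, adjusted 0.0238). In WD + CHP the ratios were 4.11 and 5.24, both above all CD libraries with the same p and adjusted p. Against CD, *Scnn1a* was then at 0.13 and *Scnn1b* at −0.14 on the log2 scale, and neither passed. Neither of these 2 ratios differed between WD + CHP and WD beyond the spread (exact permutation p = 0.19 and 0.119). The *Scnn1b* to *Scnn1g* ratio averaged 1.36 for CD, 1.29 for WD and 1.28 for WD + CHP and passed in no comparison (exact p 0.0714 to 0.643).

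**Figure D3:**
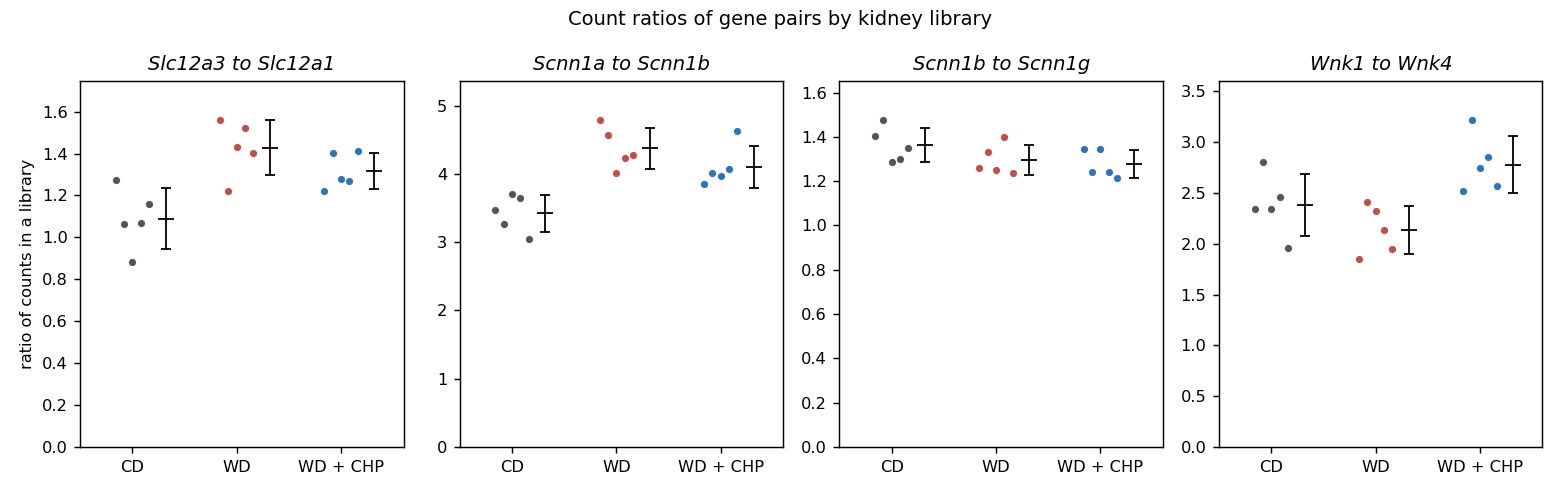
Ratio of the counts of 2 genes within each kidney library (vertical axes, no unit, from 0) by group. Points are libraries and bars are mean ± SD (n = 5). The *Scnn1a* to *Scnn1b* ratio lies between 3.05 and 3.70 in CD and between 4.01 and 4.79 in WD, while *Scnn1b* to *Scnn1g* stays between 1.21 and 1.48 throughout.

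Of the kinases, *Wnk4* (ENSMUSG00000035112, chr11:101260567-101277409, plus strand) encodes the WNK kinase most closely tied to NCC. The CD libraries read 176, 164, 181, 177 and 206 CPM. The WD libraries read 213, 209.6, 199.6, 213 and 214 CPM. The WD + CHP libraries read 194, 165, 189, 187 and 218 CPM. All WD libraries but replicate 3 stood above all of CD, and the WD + CHP values spread over the CD range and beyond. WD vs. CD gave a log2 fold change of 0.21 (SE 0.065, edgeR adjusted p = 0.0451), a rise of 16.0%. This call sat at the threshold. It was lost when any library but CD replicate 5 was left out (edgeR adjusted p 0.0573 to 0.107) and with total-count scaling (adjusted p = 0.0876). The difference was −0.14 for WD + CHP vs. WD (95% interval −0.28 to −0.0023, edgeR adjusted p = 0.432). For WD + CHP vs. CD it was 0.076 (edgeR adjusted p = 0.494). An annotated antisense gene, *Gm11615*, covers 306 bases (7.38%) of the *Wnk4* exons, and the strand setting of the counts is not given in the sources used here.

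*Stk39* (ENSMUSG00000027030, chr2:68210445-68472268, minus strand), the gene of SPAK, followed the same order of groups at a low level. The CD libraries read 31.3, 33.1, 36.3, 33.1 and 35.3 CPM. The WD libraries read 36.5, 40.4, 38.2, 38.9 and 39.6 CPM. The WD + CHP libraries read 37.7, 36.4, 37.0, 35.2 and 36.6 CPM. WD lay wholly above CD, and the WD + CHP values were close together near the lower edge of WD. WD vs. CD gave 0.20 (SE 0.043, edgeR adjusted p = 0.0092), a rise of 14.5%. WD + CHP vs. CD gave 0.11 (SE 0.043, edgeR adjusted p = 0.096), which passed without CD replicate 3 (adjusted p = 0.0368). WD + CHP vs. WD gave −0.082 (95% interval −0.17 to 0.0092, edgeR adjusted p = 0.501).

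*Wnk1* (ENSMUSG00000045962, chr6:119923969-120038672, minus strand) showed another order of groups. Its gene makes a full-length kinase and a shorter kidney-specific form that lacks most of the kinase domain, and the counts do not separate them. The CD libraries read 412, 458, 424, 437 and 404 CPM. The WD libraries read 395, 506, 464, 456 and 416 CPM. The WD + CHP libraries read 489.6, 531, 517, 534 and 559.8 CPM. CD and WD overlapped, whereas every WD + CHP library stood above every CD library and 4 of 5 above every WD library. WD vs. CD gave 0.066 (95% interval −0.059 to 0.19, edgeR adjusted p = 0.532). WD + CHP vs. CD gave 0.30 (SE 0.060, edgeR adjusted p = 0.00484), a rise of 23.2%. WD + CHP vs. WD gave 0.23 (SE 0.059, edgeR adjusted p = 0.136) and did not pass, though DESeq2 called it (adjusted p = 0.0202).

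*Wnk1* has the longest transcript of the 10 genes, 11330 bases. The median log2 fold change of WD + CHP vs. WD was 0.069 over the 839 genes with transcripts of at least 8 kb, of which 69.7% were higher, 0.0026 over the 4807 genes of 4 to 8 kb and −0.016 over the 4692 genes under 2 kb. For WD + CHP vs. CD these medians were 0.084 (66.3% higher), −0.0032 and 0.0065 in the same order. With offsets for length and GC content the *Wnk1* difference was 0.14 (edgeR adjusted p = 0.308) in WD + CHP vs. WD. WD + CHP vs. CD passed in all 10 of the alternatives that kept every library (0.21 to 0.30, adjusted p up to 0.00932). The part of length in these differences was not tested. The ratio of *Wnk1* to *Wnk4* counts was 2.38 ± 0.301 in CD, 2.13 ± 0.239 with WD and 2.78 ± 0.277 with WD + CHP (SD, n = 5). WD + CHP and WD did not overlap in it (exact permutation p = 0.00794, adjusted 0.0238), and the ratio was not corrected for length. It was chosen with the levels of both genes known, so its p is not independent support for the *Wnk1* difference.

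*Nedd4l* (ENSMUSG00000024589, on chromosome 18) ran from 110.2 to 144 CPM in CD, from 114 to 128 with WD and from 122 to 141 with WD + CHP. The ranges overlapped, and the log2 differences were −0.067 for WD vs. CD (95% interval −0.21 to 0.072), 0.077 for WD + CHP vs. WD (−0.062 to 0.22) and 0.0098 for WD + CHP vs. CD (−0.13 to 0.15). The edgeR adjusted p-values were 0.574, 0.707 and 0.944. Omitting single libraries took WD vs. CD from −0.11 (without CD replicate 2) to −0.014 (without CD replicate 5). CD libraries of this gene varied more than those of the other groups, with SDs of 14.6, 5.12 and 7.65 CPM. An antisense gene, *A330084C13Rik*, covers 277 bases (1.57%) of its exons.

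Side by side, CHP on the Western diet called none of the 10 genes by edgeR. At an unadjusted p under 0.05 there were 4 of them (*Wnk1* higher, *Sgk1*, *Scnn1a* and *Wnk4* lower), DESeq2 called 1 and limma-voom 0. Over all genes, 11.4% had an unadjusted p under 0.05 in this comparison, edgeR called 0.105% and DESeq2 called 194 genes. The median log2 fold change was −0.064, beside −0.0058 over all genes, and the groups overlapped for every one of the 10. How often groups overlapped over all genes was not counted, in this or the other comparisons. In WD + CHP vs. CD, 3 genes passed (*Sgk1*, *Wnk1* and *Slc12a3*), all higher. Over all genes 12.1% passed there, 6.25% higher and 5.84% lower. The median of the 10 was 0.095, beside −0.0050 over all genes.

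**Figure D4:**
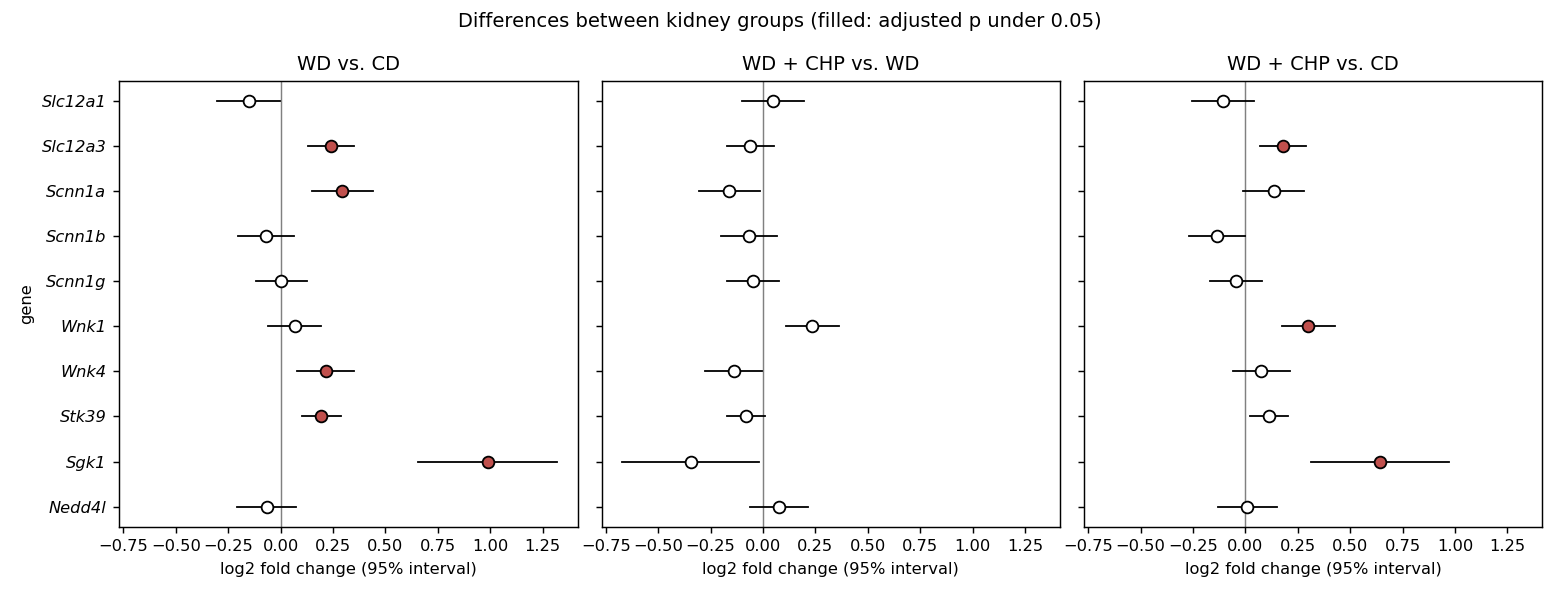
Log2 fold change of each gene with its 95% interval (horizontal axis, log2 scale) in the 3 kidney comparisons. Filled points have an edgeR adjusted p under 0.05. There are 5 filled points in WD vs. CD, 0 in WD + CHP vs. WD and 3 in WD + CHP vs. CD, all to the right of 0.

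Markers of the same segments give the setting of these changes. In bulk tissue, fewer cells of a type and less RNA per cell cannot be told apart. Of 9 markers of the distal convoluted tubule, where NCC lies, 5 rose in WD vs. CD and 1 fell, with a list median of 0.22 on the log2 scale. Over all genes 4.62% rose and 5.03% fell in this comparison. *Pvalb*, a calcium-binding protein of the early convoluted tubule, rose from 16.5 to 23.5 CPM (0.51, edgeR adjusted p = 0.000643). *Slc8a1*, the sodium-calcium exchanger, rose by 0.42 and *Calb1*, calbindin, by 0.37 on the same scale (edgeR adjusted p 0.00328 and 0.00537). The magnesium genes *Trpm6* (0.26) and *Cnnm2* (0.22) completed the 5, and *Sgms2*, a sphingomyelin synthase, fell by 0.31. The summed level of the 9 did not separate the groups, at 1894 to 2087 CPM in CD, 1885 to 2105 with WD and 1826 to 2155 with WD + CHP. Its largest member, *Egf*, did not pass. In WD + CHP vs. CD the same 5 genes rose, with a list median of 0.28, where 6.25% of all genes rose.

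The lists of the other distal segments held fewer calls, a contrast that depends on the list to which each gene was assigned. Of 9 markers of the thick ascending limb, *Ptger3*, a prostaglandin E2 receptor, rose (0.35, edgeR adjusted p = 0.0311), with a list median of 0.0021. Of 8 tested markers of the connecting tubule and principal cells, where ENaC lies, *Aqp4*, a basolateral water channel, rose (0.65, edgeR adjusted p = 0.017), with a list median of 0.0053. With 1 call each in WD vs. CD, both lists stood near the share over all genes, 9.65%. Of 8 intercalated cell markers, edgeR, DESeq2 and limma-voom each called 0 in WD vs. CD (4 at an unadjusted p under 0.05, as were 24.9% of all genes), with a list median of −0.18. *Slc4a1*, the anion exchanger AE1, and *Slc4a9* fell by 0.37 and 0.29 in WD + CHP vs. CD (edgeR adjusted p 0.0231 and 0.0427). These were 2 of the 8, and over all genes 5.84% fell in that comparison. The part of cell makeup in the changes of the 10 genes was not tested.

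**Figure D5:**
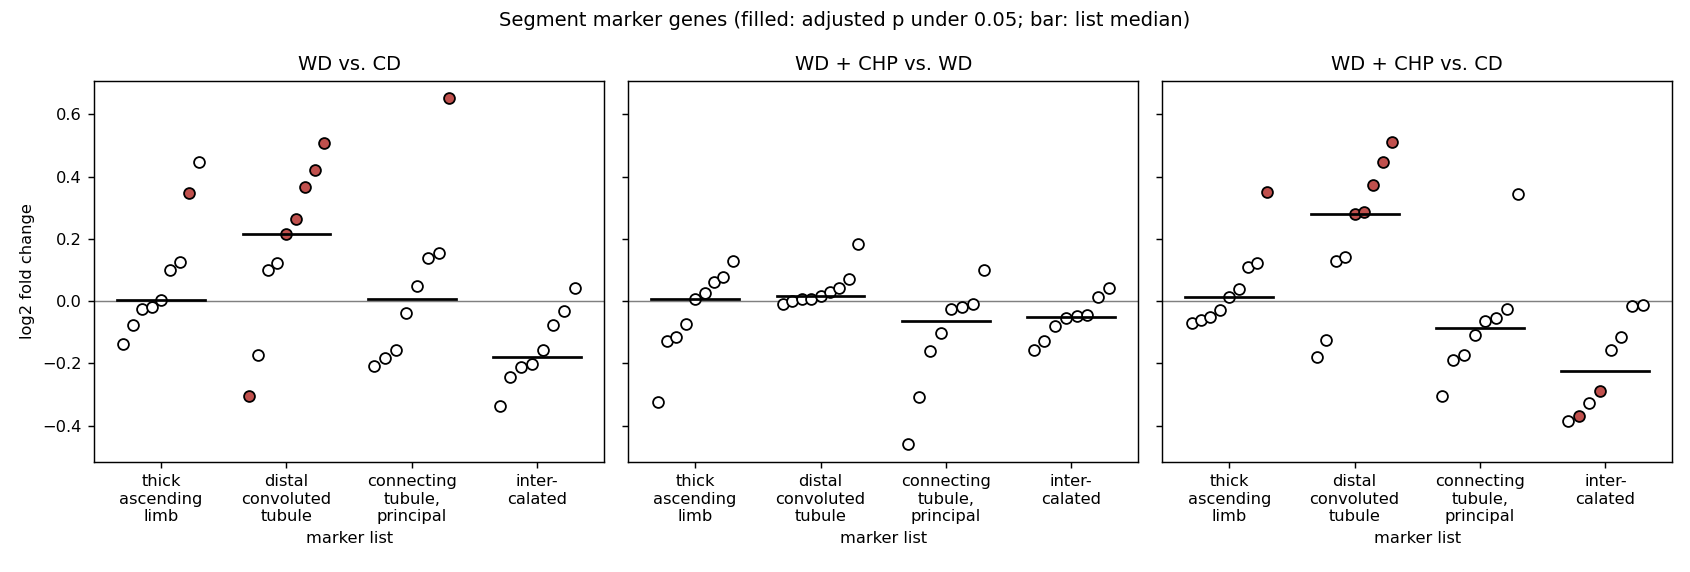
Log2 fold change (vertical axis) of the marker genes of 4 distal nephron cell types in the 3 kidney comparisons. Each point is a gene, filled where its edgeR adjusted p is under 0.05, and the bar is the list median. The distal convoluted tubule list has 5 filled points above 0 in WD vs. CD and in WD + CHP vs. CD, and no list has a filled point in WD + CHP vs. WD.

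Among 11 other genes of the WNK and SGK pathways, 1 rose in WD vs. CD, near the 9.65% of all genes called there. The list median was −0.022. The gene that rose was *Klhl3*, the adaptor that brings WNK kinases to a ubiquitin ligase, at 57.0 CPM in CD and 68.7 CPM in WD (0.27, edgeR adjusted p = 0.0219). DESeq2 called 2 of the 11 and limma-voom 1. At an unadjusted p under 0.05 there were 4, beside 24.9% of all genes. *Oxsr1*, the close relative of SPAK, differed by −0.096 and *Cul3*, the ligase scaffold, by −0.022, and neither passed. In WD + CHP vs. CD edgeR, DESeq2 and limma-voom called 0 of the 11 (2 at an unadjusted p under 0.05, as were 27.4% of all genes).

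On the basolateral side, *Kcnj10* and *Kcnj16*, the potassium channel subunits that set the membrane voltage sensed by distal tubule cells, rose in WD vs. CD, 2 of 9 genes with a list median of 0.13. *Kcnj10* went from 79.7 to 98.6 CPM (0.31, edgeR adjusted p = 0.00303) and *Kcnj16* from 661 to 767 CPM (0.21, edgeR adjusted p = 0.00716). Both also rose in WD + CHP vs. CD, by 0.22 and 0.20 (edgeR adjusted p 0.0182 and 0.00884). Over all genes 4.62% rose and 5.03% fell in WD vs. CD, and 6.25% rose in WD + CHP vs. CD. Of 8 genes of potassium secretion and of other sodium transporters, *Slc5a2*, the proximal sodium-glucose cotransporter, rose (0.40, edgeR adjusted p = 0.00465). *Kcnma1*, the large-conductance potassium channel, fell by 0.79 (edgeR adjusted p = 0.00246) from a low level of 2.56 CPM, and the list median was 0.095. In WD + CHP vs. CD, *Slc4a4*, the basolateral bicarbonate cotransporter, rose as well (0.34, edgeR adjusted p = 0.0074).

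Of 6 genes of ENaC processing and trafficking, edgeR called 0 in WD vs. CD (2 at an unadjusted p under 0.05, with 1 call each by DESeq2 and limma-voom), with a list median of −0.035. In WD + CHP vs. CD, *Usp2*, a deubiquitinase, rose (0.40, edgeR adjusted p = 0.0385) and *St14*, the protease matriptase, fell by 0.24 (edgeR adjusted p = 0.0208). Of 9 genes of the mineralocorticoid and glucocorticoid axis, *Fkbp5*, a glucocorticoid-induced co-chaperone, rose in WD vs. CD (0.37, edgeR adjusted p = 0.0323), as did *Errfi1* (0.29, edgeR adjusted p = 0.0461), with a list median of 0.29. Both also rose in WD + CHP vs. CD (0.46 and 0.29, edgeR adjusted p = 0.00962 and 0.0389). Over all genes 9.65% passed in WD vs. CD and 12.1% in WD + CHP vs. CD. The most abundant gene of the list, *Ndrg1*, was at 2645 CPM in CD and 1877 CPM in WD (−0.49, edgeR adjusted p = 0.0584) and did not pass. The summed level of the 9 genes had a median of 3361 CPM in CD (3205 to 4424) and 3052 CPM in WD (2528 to 3576), lower in WD where the list median was above 0, and the groups overlapped. The receptors *Nr3c1* and *Nr3c2* did not pass.

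The clock gene *Per2* rose alongside *Sgk1*, from 20.4 CPM in CD to 47.6 CPM in WD (1.22, edgeR adjusted p = 0.00749), as did *Ciart* (1.18, edgeR adjusted p = 0.0284), 2 of 12 clock genes with a list median of 0.36. Over all genes 9.65% passed in WD vs. CD. *Arntl* (−0.68) and *Nr1d1* (−0.43), the 2 of the 12 that were lower, did not pass. *Sgk1* also rose in WD + CHP vs. CD, as did 3 of these 12 genes, *Per2* by 1.06, *Ciart* by 1.32 and *Clock* by 0.28 (edgeR adjusted p = 0.0145, 0.0141 and 0.0182). Over all genes 12.1% passed in that comparison. *Arntl* (−0.68) and *Nr1d1* (−0.47) were lower there too and did not pass. The clock list summed to 559.9 to 799.7 CPM in CD, 679 to 857 with WD and 659 to 905 with WD + CHP. The hour at which each group was killed is not given in the sources used here, and its part in the *Sgk1* values was not tested. Immediate early genes summed to 56.9 to 132 CPM in CD and 94.4 to 179 CPM in WD, with a list median of 0.26, and edgeR, DESeq2 and limma-voom each called 0 of 8 (0 at an unadjusted p under 0.05).

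For CHP on the Western diet, edgeR and limma-voom called 0 genes of any marker or pathway list. At an unadjusted p under 0.05 the lists of the distal nephron and its pathways held 0 to 2 each, the proximal tubule and endothelium lists 3 each and the hepatocyte list 4, and DESeq2 called 1 gene, of the proximal tubule list. Over all genes 11.4% had such a p in this comparison. The hepatocyte list summed to 593 CPM in WD replicate 5 and to 58.7 to 72.5 CPM in the other WD libraries. Markers of cells outside the distal nephron also moved in WD vs. CD, where 9.65% of all genes passed. Of 6 fibroblast and smooth muscle markers, the collagen gene *Col1a1* (0.73) and *Acta2* (0.39) rose, and the list summed to 106 to 138 CPM in CD against 134 to 162 in WD. Of 12 proximal tubule markers 3 rose and 1 fell. Of 6 hepatocyte markers *Serpina1a* rose (0.87, edgeR adjusted p = 0.023), and of 5 tested adipocyte markers *Cfd* fell by 2.47 (edgeR adjusted p = 0.0311) from 1.89 CPM in CD. Their part in the results for the 10 genes was not tested.

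Without WD replicate 5, the library with the highest hepatocyte signal, *Sgk1* (1.03), *Scnn1a* (0.32), *Slc12a3* (0.26) and *Stk39* (0.19) still passed in WD vs. CD (edgeR adjusted p 0.00176, 0.0159, 0.0103 and 0.0206), and *Wnk4* (0.21) did not (adjusted p = 0.0754).

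Within groups the genes also varied between libraries. CD replicate 5 was the highest CD library for *Scnn1a*, *Scnn1b*, *Scnn1g*, *Wnk4* and *Nedd4l*, and had the lowest mitochondrial share, 17.8%. WD + CHP replicate 5 was the highest of its group for *Slc12a3*, *Scnn1a*, *Scnn1g*, *Wnk1* and *Wnk4*. As a description over 15 libraries with group means removed, the closest pairs of the 10 were *Scnn1g* with *Wnk4* (Pearson r = 0.86, Spearman rho = 0.77) and *Slc12a1* with *Stk39* (0.74 and 0.67). Such values also carry what libraries share in depth and composition.

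Among 12406 genes searched in the same way, the 3 most like each member had r from 0.82 to 0.95. For *Slc12a1* they were *Cldn19*, a tight junction gene of the same segment (r = 0.88), *Hccs* and *Ptger3*. For *Slc12a3*, *Myrf* and *Bhlhb9* were among them. For the ENaC genes they were *Glrx2*, *Ccl6* and *Pbxip1* (*Scnn1a*), *Klhdc3*, *Pcif1* and *Ppp2r1a* (*Scnn1b*), and *Deaf1*, *Med15* and *Ist1* (*Scnn1g*). For the kinases they were *Chd9* (r = 0.95), *Itpr1* and *Gm16185* (*Wnk1*), *Wscd2*, *Pdk2* and *Lama5* (*Wnk4*), *Pard6a*, *Lrrc31* and *Tspan8* (*Stk39*), and *Pan3*, *Cbfa2t2* and *Wasf2* (*Sgk1*). For *Nedd4l* they were *Fam222a*, *Exd2* and *Zfp362*. These r are the highest of 12406 over 15 libraries and so are high by selection. The r that unrelated genes would reach was not computed.

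Gastrocnemius libraries, normalised separately, give the levels of the 10 genes in a second tissue, with no test. *Slc12a1*, *Slc12a3*, the ENaC genes and *Wnk4* had 0 to 30 counts in any muscle library. *Sgk1* had a median of 175 CPM in muscle and 82.3 CPM in kidney, and *Wnk1* 298 and 458 CPM. *Nedd4l* had 29.3 and 124 CPM, and *Stk39* 2.98 and 36.5 CPM.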

How the data were processed

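RNA was sequenced on BGISEQ-500 after polyA selection. The authors cleaned reads with SOAPnuke, aligned them with STAR 2.7.3a to GRCm38 (mm10) and deposited unnormalised counts (reads assigned to each gene in each library). The counting tool, annotation and strand setting are not given in the sources used here. No column was left without a sample (0).
Everything from the counts on was computed here in R 4.3.3 with edgeR 4.0.16 (filterByExpr, minimum count 10, TMM, the quasi-likelihood test with the 3 kidney groups in 1 model, two-sided, Benjamini-Hochberg over 17120 genes, threshold 0.05). Each SE is the log2 fold change divided by the square root of its F. Alternatives used DESeq2 1.42.0 and limma 3.58.1 (voom), other scalings and filters, a threshold of 0.1, length and GC offsets, the replicate number as a block, and each library left out. Ratios were tested in SciPy 1.17.1, and plots were drawn in matplotlib 3.10.9.
The 10 genes and all gene lists were chosen with earlier results of these data known. Named genes were the 10, up to 4 called genes per list and comparison by size of change, with the rest of a count or genes of interest added after their values were seen, and the 3 genes most like each member by Pearson r of log2 CPM (prior count 2, mean at least 1), apart from an item not reported here. Gene positions are from GENCODE M21, in which 54809 of 54838 gene IDs were found. Replicate libraries differed by 8.84 to 24.8 times counting error per gene, so none was a duplicate. Tested on simulated counts for WD vs. CD over 17120 genes, the model recovered 74% of 100 genes changed by 0.5 on the log2 scale and 97% of 100 changed by 1. Of the 10 genes only *Sgk1*, against CD, differed by more than 0.5, and recovery of smaller changes was not simulated. Depth was 37189192 to 38211422 counts per kidney library. Gastrocnemius was used for levels only.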

Additional observations from a re-analysis of the deposited data

Results flagged for a closer look

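Within groups of 5, a highest or lowest library was compared with the others by Dixon's ratio (critical value 0.71), over 30 groups. The *Scnn1g* level of CD replicate 5, 40.1 CPM, stood apart from the other CD libraries at 31.9 to 33.8 CPM. The *Nedd4l* level of WD + CHP replicate 1, 141 CPM, stood apart from the others of its group at 122 to 128 CPM. Chance flags about 1 in 20 groups. Without these libraries neither gene passed in any comparison.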

How the results depend on the processing

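In WD vs. CD, *Sgk1*, *Slc12a3*, *Scnn1a* and *Stk39* passed in all 10 alternatives with every library and all 10 omissions of a library, and *Wnk4* in 9 and 1 of them. Leaving out libraries in turn gave 4 to 5 members called there (1142 to 1744 genes), 0 to 1 in WD + CHP vs. WD (0 to 97 genes, *Wnk1* without WD replicate 2 at an edgeR adjusted p = 0.035) and 2 to 3 in WD + CHP vs. CD (1202 to 2150 genes). For WD + CHP vs. WD, 18 genes passed, against 194 with DESeq2 (1 member, *Wnk1*), 37 without a filter, 0 with only the 2 groups compared and 0 with length and GC offsets. An adjusted p under 0.1 gave 2647, 75 and 3232 genes in WD vs. CD, WD + CHP vs. WD and WD + CHP vs. CD. The cause of these shifts was not tested.
Deviations of same-numbered libraries had r from −0.23 to 0.24 over 15 pairs, 4 above 0.1. Such values cannot show that the numbers share no batch, and the main model did not pair samples by them. With the replicate block, 1582, 70 and 1970 genes and 5, 0 and 3 members passed, and 8 genes in WD + CHP vs. WD with length and GC offsets added.
Values near 0 changed sign. *Scnn1g* in WD vs. CD was −0.015 with total-count scaling and −0.016 to 0.074 on omitting libraries, and −0.078 to 0.030 in WD + CHP vs. CD. *Nedd4l* in WD + CHP vs. CD was −0.042 with total-count scaling, −0.049 with length and GC offsets, −0.046 with the replicate block added to them, and −0.028 to 0.066 on omitting libraries. The *Scnn1b* to *Scnn1g* log2 ratio in WD + CHP vs. WD ran from −0.039 to 0.0083. These omissions for ratios were added after seeing the data.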
